A study of Macaca fascicularis
Homo sapiens with 2 samples.

Results

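Potassium, sodium and calcium channel genes were described in human and cynomolgus macaque pluripotent stem cells at the start of neural induction and 7 days into it. Members were all genes whose symbol began with KCN (potassium channels and their partners), with SCN followed by a digit and A or B (voltage-gated sodium channels), or with CACN (voltage-gated calcium channels). The rule found 136 genes of the 20669 annotated on the human genome and 113 of the 22504 on the cynomolgus genome. Each of the 113 cynomolgus symbols also occurred among the human members, and 23 human members had no cynomolgus gene of the same symbol. H9, a human embryonic stem cell line, and 56A1, a cynomolgus line of induced pluripotent stem cells, supplied the cells. Both lines, on both days, were UGP2 knockouts. The UGP2 product makes UDP-glucose, a sugar donor. No wild-type cells were analysed here, so the knockout's effect on these genes was not measured, and whether each line is a single clone is not given in the sources used here. Day 0 cells were in UPPS medium, the pluripotent condition of the labels. Day 7 cells were in neural progenitor differentiation medium with SB431542 at 10 µM and LDN193189 at 100 nM, which inhibit NODAL/activin and BMP receptors. Human and cynomolgus cells were mixed in equal amounts for 1 library per day, and a cell was assigned to a species when at least 90% of its UMIs (unique molecular identifiers, 1 per captured RNA molecule) mapped to that genome.

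Ion channels are membrane pores that pass selected ions and so set the electrical state of a cell. Potassium channels hold or restore the resting potential, voltage-gated sodium channels carry the upstroke of the action potential, and voltage-gated calcium channels turn depolarization into calcium entry. Pore subunits form the channel, and accessory subunits change its trafficking and gating. Stem cells and neural progenitors do not fire mature action potentials, but both are known to carry potassium channels, and calcium entry takes part in neural development.

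The libraries gave 5206 human and 2016 cynomolgus cells on day 0, and 8173 and 6467 on day 7. Outside the mitochondrial genes, UMIs of the own genome totalled 34670316 on day 0 and 43723892 on day 7 for human cells, and 10683788 and 34639499 for cynomolgus cells. Levels are UMIs per 1000000 of these totals (CPM), so 3 UMIs correspond to 0.0865 and 0.0686 CPM for human cells and 0.281 and 0.0866 CPM for cynomolgus cells. Each day was 1 library without a replicate, so differences could not be tested. Intervals in parentheses are exact Poisson 95% intervals, or exact intervals of the ratio or share beside a fold or a percentage, and cover counting error only. Each change is the log2 ratio of day 7 to day 0 after adding 1 CPM to both, a scale that shrinks the changes of low genes, and members counted as higher or lower changed at least 2-fold on that scale. These are 3′ tag counts, so levels were compared within a gene and not between genes. The human and cynomolgus copies of a gene were counted on separate annotations, and whether both were counted equally well was not tested. Where levels of the species are called alike or different on a day, this describes the counts only. UGP2 itself went from 216.6 to 87.0 CPM in human cells and from 326.9 to 76.8 CPM in cynomolgus cells, and a 3′ tag does not check a knockout. Of the pluripotent marker list, 10 of 12 expressed genes were lower on day 7 in human cells and 6 of 8 in cynomolgus cells. Of the neural progenitor list, 10 of 13 and 11 of 11 were higher. Mitochondrial genes took 8.13% and 3.90% of own-species UMIs in human cells on days 0 and 7 and 4.39% and 2.36% in cynomolgus cells. Whether this difference takes part in the channel levels was not tested. The libraries shared 50 cell barcodes, 30 of them among the cells kept.

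At least 5 CPM on either day, the level called expressed here, was reached by 55 of the 136 human members and 50 of the 113 cynomolgus members. That level was reached by 58.1% of all human genes and 50.1% of all cynomolgus genes. In human cells 32 members passed on both days, 11 on day 0 only and 12 on day 7 only, when 53.9% of all genes passed on day 0 and 54.3% on day 7. In cynomolgus cells the counts were 29, 9 and 12, and the shares of all genes 46.3% and 47.2%. Of the members below the level, 78 human and 52 cynomolgus genes had at least 1 UMI. The other 3 human genes with 0 UMIs on both days were KCNA10, KCNK18 and KCNJ18. KCNJ18 is a near-identical copy of KCNJ12, so counting could split or lose its reads, and KCNJ12 went from 1.76 to 1.37 CPM. The 11 cynomolgus genes at 0 were KCNA3, KCNA10, KCNJ11, KCNJ15, KCNK4, KCNK16, KCNMB1, KCNS1, KCNS2, SCN4A and CACNG1. Just inside the level were SCN3A in human cells at 5.15 CPM on day 7 and KCNQ5 in cynomolgus cells at 5.43 CPM on day 0. Just outside were SCN4B in cynomolgus cells at 4.87 CPM and, in human cells, KCNJ14 at 4.71 and CACNA1G at 4.70 CPM.

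Of the 55 human members expressed, 10 were higher on day 7 (14.9% of all expressed human genes were), 16 were lower (14.4% of all) and 29 stayed within 2-fold. Of the 50 cynomolgus members, 10 were higher (13.8% of all expressed cynomolgus genes), 13 were lower (11.0% of all) and 27 stayed within 2-fold. The median log2 change of expressed members was -0.01 in human and -0.08 in cynomolgus cells, against 0.05 and 0.06 over all expressed genes. Summed over all members, the level was 2144 CPM on day 0 and 1647 CPM on day 7 for human cells, and 2085.5 CPM and then 1395.6 CPM for cynomolgus cells. Of the role groups, the voltage-gated potassium pore subunits had the largest drop in summed CPM in both species. Their sum went from 668.8 to 329.5 CPM in human cells and from 1012.4 to 286.8 CPM in cynomolgus cells, with most of the drop in KCND2 alone. As a ratio the silent Kv subunits dropped more, from 78.5 to 23.6 CPM in human and from 71.3 to 9.67 CPM in cynomolgus cells.

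**Figure D1:**
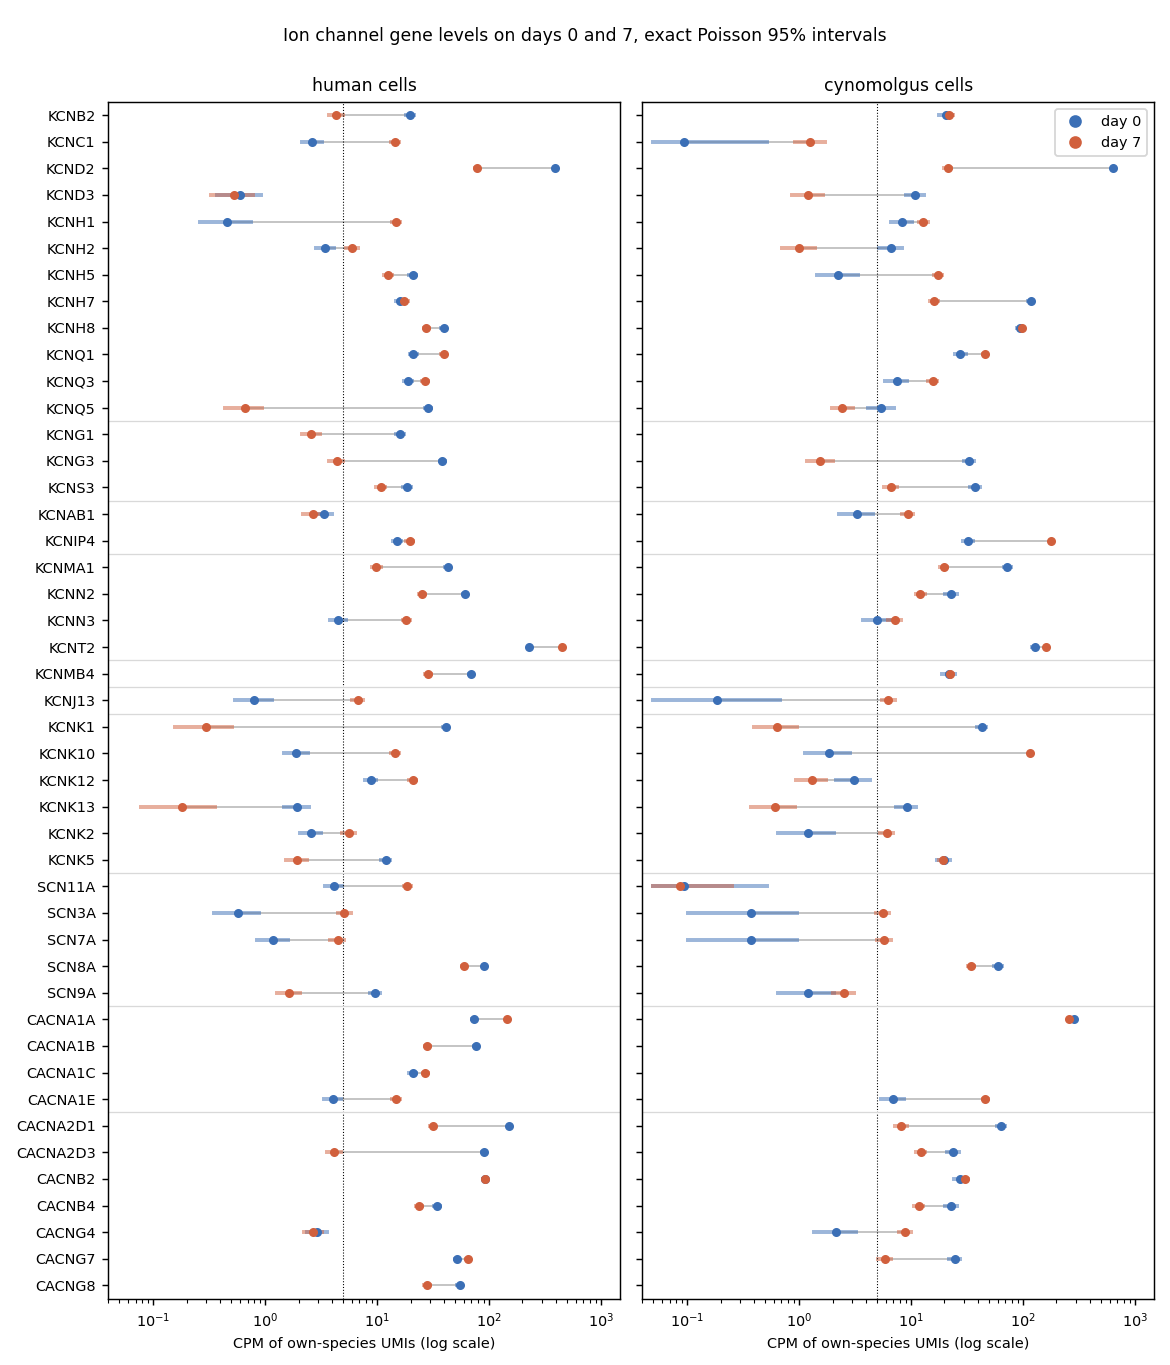
Level of channel genes in human (left) and cynomolgus cells (right), in CPM of own-species UMIs on a log axis, with day 0 in blue and day 7 in red. Points are the 1 library per day, horizontal bars are exact Poisson 95% intervals drawn from 0.05 CPM upwards, grey lines join the days, the dotted line marks 5 CPM, horizontal lines part the role groups, and a row without points has no cynomolgus gene of that symbol. KCND2 and KCNK1 moved left and KCNK10 moved right from day 0 to day 7 in both panels.

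The voltage-gated potassium (Kv) pore subunits open on depolarization and repolarize the membrane. Of 30 human members 14 were expressed, with 3 higher and 3 lower, and of 24 cynomolgus members 13 were expressed, with 1 higher and 5 lower. KCND2 (ENSG00000184408 and ENSMFAG00000046158), the pore of a rapidly inactivating A-type current, was at 388 (381 to 395) CPM on day 0 and 78.3 (75.7 to 80.9) CPM on day 7 in human cells. In cynomolgus cells it was at 646 (631 to 662) CPM and 21.4 (19.9 to 23.0) CPM. It was thus high on day 0 and lower on day 7 in both species, 4.96-fold (4.77 to 5.15) in human and 30.2-fold (28.0 to 32.7) in cynomolgus cells. Its close relative KCND3 went from 10.9 to 1.21 CPM in cynomolgus cells, lower by 8.95-fold (6.24 to 13.1), while in human cells it went from 0.606 to 0.526 CPM.

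The KCNQ genes encode slowly activating channels. KCNQ3, a subunit of the M current that restrains neuronal firing, went from 19.1 to 27.0 CPM in human cells and from 7.49 to 15.6 CPM in cynomolgus cells, with log2 changes of 0.48 and 0.97. In both species KCNQ3 was more abundant on day 7, and in cynomolgus cells its ratio of 2.09-fold (1.65 to 2.68) fell just short of 2-fold on the scale with 1 CPM added. KCNQ5 was at 28.8 (27.0 to 30.6) CPM and 0.663 (0.444 to 0.953) CPM in human cells, a 43.4-fold lower level. In cynomolgus cells it went from 5.43 (4.12 to 7.02) to 2.45 (1.96 to 3.03) CPM, within 2-fold on the scale used. KCNQ1, best known from heart and epithelia, went from 21.2 to 39.4 CPM in human and from 27.7 to 46.0 CPM in cynomolgus cells, higher on day 7 in both but within 2-fold.

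The KCNH genes, the EAG, ERG and ELK channels, held 4 of the 10 members whose change differed most between the species, and 5 of the 42 members compared. KCNH1 was at 0.461 (0.264 to 0.749) CPM on day 0 and 14.9 (13.8 to 16.1) CPM on day 7 in human cells, a 32.3-fold (19.7 to 56.8) higher level. In cynomolgus cells it was already at 8.33 (6.69 to 10.3) CPM on day 0 and reached 13.0 (11.8 to 14.2) CPM, so the day 7 levels lay closer together than the day 0 levels. KCNH5, the other EAG gene, went from 20.9 to 12.5 CPM in human cells and from 2.25 to 17.4 CPM in cynomolgus cells, where it was 7.75-fold (5.16 to 12.2) higher on day 7. KCNH7, an ERG gene, went from 16.2 to 17.6 CPM in human cells and from 118 to 16.3 CPM in cynomolgus cells. The day 7 levels of KCNH7 were again alike and the day 0 levels were not, with a 7.23-fold (6.54 to 7.99) lower level on day 7 in cynomolgus cells. KCNH2, which encodes hERG, went from 3.43 to 5.97 CPM in human cells and from 6.65 to 1.01 CPM in cynomolgus cells, so it moved in opposite directions. KCNH8 went from 39.4 to 27.8 CPM in human cells and from 94.7 to 99.0 CPM in cynomolgus cells, within 2-fold in both.

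KCNB2, a delayed rectifier pore with which silent subunits assemble, went from 19.8 to 4.32 CPM in human cells, 4.59-fold (3.90 to 5.42) lower on day 7, and from 20.5 to 22.1 CPM in cynomolgus cells. It was thus alike in the species on day 0, and the levels parted by day 7. KCNC1, a fast-activating pore known from fast-spiking neurons, went from 2.65 to 14.6 CPM in human cells and from 0.0936 to 1.27 CPM in cynomolgus cells.

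Silent Kv subunits form no channel alone and modify other Kv pores. Of the 10 human members 3 were expressed, with 2 lower and 0 higher, and of the 8 cynomolgus members 2 were expressed, with 2 lower. KCNG3 went from 38.4 (36.4 to 40.5) to 4.37 (3.77 to 5.03) CPM in human cells and from 33.3 (29.9 to 37.0) to 1.56 (1.17 to 2.03) CPM in cynomolgus cells. It was lower on day 7 by 8.79-fold (7.55 to 10.3) and 21.4-fold (16.0 to 29.0), from similar day 0 levels. KCNS3 went from 18.5 to 10.8 CPM in human cells, within 2-fold, and from 37.3 to 6.61 CPM in cynomolgus cells, 5.65-fold (4.79 to 6.68) lower. KCNG1, for which the cynomolgus annotation had no symbol, went from 16.0 to 2.58 CPM in human cells.

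Kv accessory subunits, which travel with the pore and set its inactivation, were expressed from 4 of 13 human and 6 of 10 cynomolgus members. In human cells 0 were past 2-fold, and in cynomolgus cells 2 were higher. KCNIP4, a calcium-binding partner of the KCND pores, went from 15.1 (13.9 to 16.5) to 19.6 (18.4 to 21.0) CPM in human cells. In cynomolgus cells it went from 32.5 (29.2 to 36.1) to 181 (176 to 185) CPM, 5.56-fold (4.99 to 6.21) higher on day 7. KCNIP4 and its partner KCND2 therefore lay on opposite sides in cynomolgus cells, the partner lower and KCNIP4 higher. KCNAB1, a cytoplasmic beta subunit, went from 3.28 to 9.41 CPM in cynomolgus cells and from 3.35 to 2.68 CPM in human cells.

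Potassium channels opened by internal calcium or sodium were expressed from 5 of 8 members in each species. In human cells 1 was higher and 2 were lower, and in cynomolgus cells 0 were higher and 1 was lower. KCNT2 (ENSG00000162687 and ENSMFAG00000030817), a sodium-activated channel, went from 230.2 (225 to 235) to 454 (448 to 461) CPM in human cells and from 128 (121 to 135) to 161 (157 to 165) CPM in cynomolgus cells. It was more abundant on day 7 in both species, 1.97-fold (1.92 to 2.03) and 1.26-fold (1.19 to 1.34), with log2 changes of 0.98 and 0.33. KCNMA1, the large-conductance BK pore, went from 43.0 to 9.88 CPM in human cells and from 72.5 to 19.6 CPM in cynomolgus cells. Its level was lower on day 7 in both, by 4.35-fold (3.91 to 4.86) and 3.70-fold (3.33 to 4.11). Among the small-conductance SK channels, KCNN2 went from 60.9 to 25.4 CPM in human and from 22.8 to 12.2 CPM in cynomolgus cells, and KCNN3 went from 4.53 to 18.4 CPM in human and from 4.96 to 7.16 CPM in cynomolgus cells. KCNN2 was thus lower and KCNN3 higher on day 7 in both species, past 2-fold in human cells only.

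Accessory subunits of the BK channel were expressed from 2 of 4 members in each species. KCNMB3 was within 2-fold in both. KCNMB4 went from 69.5 (66.8 to 72.3) to 28.6 (27.0 to 30.2) CPM in human cells, lower by 2.43-fold (2.27 to 2.61). In cynomolgus cells it went from 21.8 (19.1 to 24.8) to 22.4 (20.9 to 24.0) CPM by its own copy. Those cells also carried 129 and 310 UMIs assigned to the human copy of KCNMB4, beside 233 and 776 of their own, so its cynomolgus level is less certain than that of other members.

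Inward rectifiers (KCNJ) pass potassium best near the resting potential, and 1 of 16 human and 1 of 11 cynomolgus members were expressed. That gene was KCNJ13 in both species, known from retinal pigment epithelium and choroid plexus. It went from 0.808 (0.537 to 1.17) to 6.77 (6.02 to 7.59) CPM in human cells and from 0.187 (0.0227 to 0.676) to 6.29 (5.49 to 7.19) CPM in cynomolgus cells. The day 7 level was 8.38-fold (5.68 to 12.8) and 33.6-fold (9.20 to 279) above day 0, the latter from 2 UMIs on day 0. On day 7 the cynomolgus cells also had 230 UMIs assigned to human KCNJ13, next to 218 assigned to cynomolgus KCNJ13, which limits what this gene's values show.

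Tandem-pore-domain (K2P) leak channels stay open at rest and set the resting potential, and they held the member with the largest decrease in human cells, KCNK1, and that with the largest increase in cynomolgus cells, KCNK10. Of 15 human members 6 were expressed, with 2 higher and 3 lower, and of 14 cynomolgus members 5 were expressed, with 2 higher and 2 lower. KCNK1 (ENSG00000135750 and ENSMFAG00000041435), a weakly rectifying leak channel, went from 41.2 (39.1 to 43.4) to 0.297 (0.158 to 0.508) CPM in human cells. In cynomolgus cells it went from 43.1 (39.2 to 47.2) to 0.635 (0.398 to 0.962) CPM. The 2 species started level and ended near 0, with 139-fold (80.9 to 261) and 67.8-fold (44.2 to 109) lower levels on day 7.

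KCNK10 (ENSG00000100433 and ENSMFAG00000042642), a mechano- and lipid-gated leak channel of the TREK family, went the other way. It went from 1.90 (1.47 to 2.42) to 14.5 (13.4 to 15.7) CPM in human cells and from 1.87 (1.14 to 2.89) to 117 (114 to 121) CPM in cynomolgus cells. From like levels on day 0 it was 7.60-fold (5.90 to 9.95) higher in human and 62.6-fold (40.5 to 103) higher in cynomolgus cells. The cynomolgus log2 change was 5.36, and 4.64 with species called at 80% of UMIs. KCNK2, the other TREK gene expressed, went from 2.57 to 5.60 CPM in human and from 1.22 to 6.12 CPM in cynomolgus cells, with log2 changes of 0.89 and 1.68. KCNK5, an alkaline-activated channel, went from 12.0 to 1.92 CPM in human cells and stayed at 19.7 and 19.2 CPM in cynomolgus cells. Of the THIK genes, KCNK12 moved apart between the species and KCNK13 was lower on day 7 in both. KCNK12 went from 8.83 to 20.9 CPM in human cells and from 3.09 to 1.30 CPM in cynomolgus cells, and KCNK13 went from 9.17 to 0.606 CPM in cynomolgus cells and from 1.93 to 0.183 CPM in human cells. KCNK6 went from 8.22 to 1.83 CPM in human cells and was under 5 CPM in cynomolgus cells.

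Voltage-gated sodium (Nav) pores were expressed from 6 of 10 human and 4 of 10 cynomolgus members, with 2 higher in each species, 2 lower in human and 0 lower in cynomolgus cells. SCN8A, a main sodium pore of the axon initial segment in neurons, went from 91.4 (88.3 to 94.7) to 59.8 (57.5 to 62.1) CPM in human cells and from 60.3 (55.7 to 65.1) to 34.6 (32.7 to 36.6) CPM in cynomolgus cells. It was lower on day 7 in both, within 2-fold. SCN3A, the sodium pore typical of fetal brain, went from 0.577 (0.352 to 0.891) to 5.15 (4.50 to 5.86) CPM in human cells and from 0.374 (0.102 to 0.959) to 5.60 (4.84 to 6.45) CPM in cynomolgus cells. Its level on day 7 was 8.92-fold (5.64 to 14.9) above day 0 in human cells, and the interval of the ratio in cynomolgus cells, from 4 UMIs on day 0, was 5.75 to 55.5. It stayed low in both species. SCN11A and SCN9A, known from sensory neurons, differed between species, with SCN11A at 4.12 and 18.7 CPM and SCN9A at 9.63 and 1.65 CPM in human cells. In cynomolgus cells SCN11A was at 0.0936 and 0.0866 CPM and SCN9A at 1.22 and 2.51 CPM. SCN7A, a sodium-sensing relative of the pores, went from 0.374 to 5.74 CPM in cynomolgus cells and from 1.18 to 4.46 CPM, just under the expression level, in human cells. Of the beta subunits, 0 of 4 were expressed in human cells and 1 of 4 in cynomolgus cells.

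Voltage-gated calcium (Cav) pores were expressed from 6 of 10 human members, with 1 higher and 1 lower, and from 3 of 6 cynomolgus members, with 1 higher. CACNA1A (ENSG00000141837 and ENSMFAG00000040043), the P/Q-type pore of nerve terminals, went from 73.5 (70.7 to 76.5) to 146 (142 to 149) CPM in human cells and from 285 (275 to 296) to 262 (256 to 267) CPM in cynomolgus cells. The human level on day 7 was 1.98-fold (1.89 to 2.08) that on day 0, just short of 2-fold on the scale used, and the cynomolgus level was slightly lower on day 7, with a log2 change of -0.12. With species called at 80% of UMIs the cynomolgus change was 0.06, the other direction. CACNA1E, the R-type pore, went from 4.04 to 14.8 CPM in human cells and from 6.93 to 46.4 CPM in cynomolgus cells, higher on day 7 by 3.66-fold (3.04 to 4.42) and 6.69-fold (5.30 to 8.57). CACNA1D, an L-type pore, went from 5.80 to 11.4 CPM in human and from 10.3 to 8.05 CPM in cynomolgus cells. The cynomolgus annotation had no CACNA1B, CACNA1C or CACNA1H symbol. In human cells CACNA1B, the N-type pore, went from 77.3 to 28.4 CPM, CACNA1C, an L-type pore, from 20.9 to 27.2 CPM, and CACNA1H, a T-type pore, from 5.25 to 7.04 CPM.

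Cav accessory subunits were expressed from 8 of 16 human and 8 of 14 cynomolgus members, with 2 lower in human cells, and 1 higher and 3 lower in cynomolgus cells. Of the alpha-2-delta genes, which help carry the pore to the surface, the 3 that reached 5 CPM had lower levels on day 7 in both species. CACNA2D4, under 5 CPM on both days, went the other way, from 0.635 to 4.44 CPM in human and from 0.749 to 3.96 CPM in cynomolgus cells. CACNA2D1 went from 152 (148 to 156) to 31.5 (29.8 to 33.2) CPM in human cells and from 64.0 (59.3 to 69.0) to 8.17 (7.25 to 9.18) CPM in cynomolgus cells, lower by 4.84-fold (4.56 to 5.14) and 7.84-fold (6.81 to 9.03). CACNA2D3 went from 90.1 to 4.16 CPM in human cells, 21.6-fold (18.6 to 25.3) lower, and from 23.8 to 12.2 CPM in cynomolgus cells, within 2-fold on the scale used. CACNA2D2 went from 10.2 to 7.43 CPM in human and from 5.80 to 1.07 CPM in cynomolgus cells. Among the beta subunits, which bind the pore inside the cell, CACNB2 went from 92.9 to 92.2 CPM in human and from 27.4 to 30.3 CPM in cynomolgus cells, alike on both days, and CACNB4 went from 34.3 to 23.7 CPM and from 23.0 to 11.7 CPM. CACNG4, CACNG7 and CACNG8 belong to the gamma genes whose products also accompany AMPA receptors. CACNG7 went from 52.3 to 65.1 CPM in human cells and from 24.6 to 5.83 CPM in cynomolgus cells, 4.22-fold (3.50 to 5.10) lower there. CACNG4 went from 2.15 to 8.89 CPM in cynomolgus and from 2.94 to 2.70 CPM in human cells, and CACNG8 went from 54.9 to 28.0 CPM in human cells with no cynomolgus symbol.

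The day changes were then set side by side between species for the 42 members at 5 CPM in both. KCNK10, KCNJ13, SCN3A and CACNA1E, 4 of 42, were higher in both (7.18% of 9094 shared genes were). KCNK1, KCND2, KCNG3, CACNA2D1 and KCNMA1, 5 of 42, were lower in both (6.12% of all). In opposite directions past 2-fold were 0 of 42 (0.759% of all). The sign of the change was the same for 30 of 42 (76.0% of all). A further 10 were past 2-fold in human cells only (12.9% of all) and 9 in cynomolgus cells only (8.76% of all). The changes lay at least 2-fold apart between the species for 21 of 42 (15.1% of all), 8 of them higher and 13 lower in cynomolgus cells. Across the 42 members Pearson's r was 0.65 and Spearman's rho 0.67, against 0.68 and 0.67 over all 9094 genes. The points share their library, medium and day with the other species, and genes are not replicates.

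The largest differences, cynomolgus minus human change on the log2 scale, were 3.26 for KCNQ5, 3.24 for CACNA2D3, 3.20 for KCNH5, 2.95 for KCNK10 and 2.12 for KCNK5. At the other end were -2.90 for KCNH7, -2.86 for KCNH1, -2.58 for KCNH2, -2.56 for KCND2 and -2.22 for CACNG7. Species and line cannot be told apart, since each species was 1 line.

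Human cells expressed 13 members that were not measured at 5 CPM in cynomolgus cells. For 7 of them, which include CACNA1B, CACNA1C, CACNA1H, CACNG8, KCNE5 and KCNG1, the cynomolgus annotation had no gene of that symbol, and 6 were under 5 CPM. Cynomolgus cells expressed 8 members that were under 5 CPM in human cells, among them KCND3, KCNK13, KCNAB1, CACNG4 and SCN7A.

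**Figure D2:**
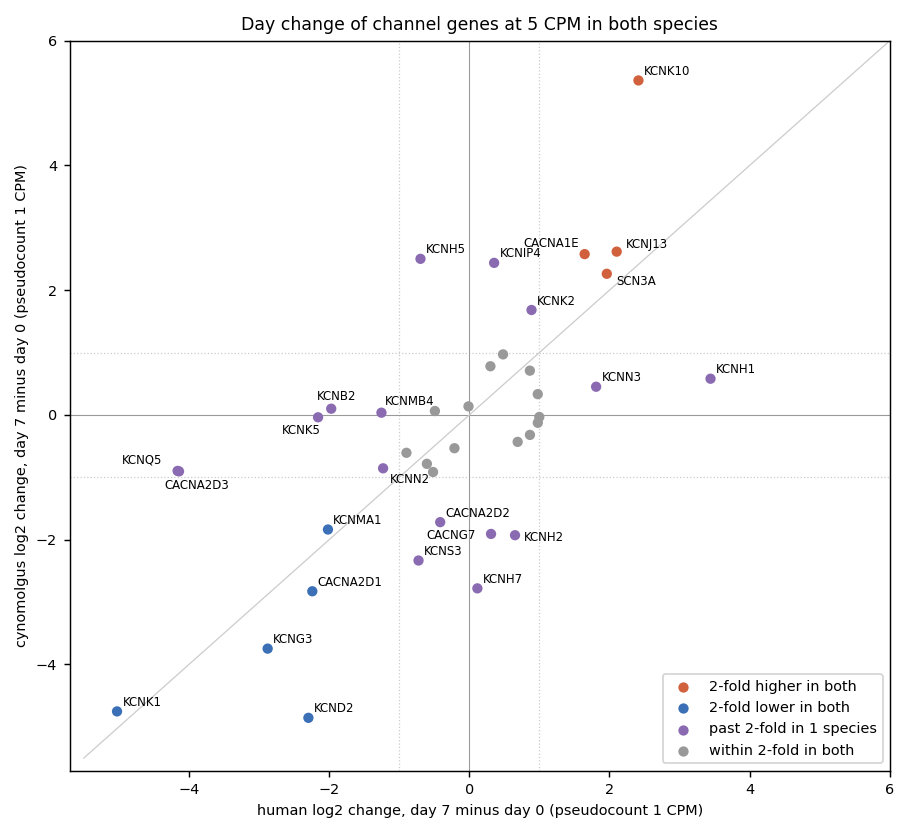
Log2 change from day 0 to day 7 in human cells (horizontal axis) and cynomolgus cells (vertical axis) of 39 of the 42 channel genes at 5 CPM in both species, 1 point per gene. Dotted lines mark 2-fold and the diagonal marks equal change. The 4 genes higher in both lie at the upper right and the 5 lower in both at the lower left, and 0 genes lie past 2-fold in the upper left or lower right corner.

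Whether a member's UMIs came from few or many cells was read from cells thinned to 2500 own-species UMIs each. On day 0 this kept 4710 human and 2004 cynomolgus cells and left out 496 and 12, and on day 7 it kept 7824 and 6011 and left out 349 and 456. Human day 0 cluster 3 (550 cells, described below) had a median of 1909.5 own-species UMIs, so most of its cells were left out. KCND2 was at 17.1 CPM in that cluster against 400.2 CPM in the other human day 0 cells. The share of cells of the other species that carried the same copy is given as the background.

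KCND2 was found in 49.2% (47.8 to 50.7, exact binomial) of human cells on day 0 and 14.0% (13.2 to 14.7) on day 7, with 1.85% and 0.216% of cynomolgus cells carrying the human copy. In cynomolgus cells the shares were 61.8% (59.7 to 64.0) and 3.66% (3.20 to 4.17), with 1.15% and 0.0767% of human cells carrying that copy. Without thinning, the shares of the same cells were 75.1% and 24.5% in human and 76.3% and 8.25% in cynomolgus cells. KCND2 was thus found in a large share of day 0 cells in both species and in a far smaller share on day 7.

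KCNK10 was found in 0.499% (0.240 to 0.916) of cynomolgus cells on day 0 and 23.3% (22.2 to 24.4) on day 7, and in 0.573% (0.378 to 0.833) and 3.31% (2.93 to 3.73) of human cells. The background share of KCNK10 was at most 0.266% for either copy and day. KCNIP4 was found in 6.19% (5.17 to 7.33) and 24.0% (23.0 to 25.1) of cynomolgus cells, but in 2.99% (2.53 to 3.52) and 3.62% (3.21 to 4.05) of human cells. KCNK1 was found in 8.81% (8.02 to 9.66) of human and 8.58% (7.39 to 9.90) of cynomolgus cells on day 0. On day 7 it was in 0.0767% (0.0281 to 0.167) and 0.133% (0.0575 to 0.262), against background shares of 0.0166% and 0% that day.

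KCNT2 was found in 36.9% (35.5 to 38.3) and 62.3% (61.2 to 63.4) of human cells, and in 23.7% (21.8 to 25.6) and 30.5% (29.4 to 31.7) of cynomolgus cells. CACNA1A was found in 14.2% (13.3 to 15.3) and 28.3% (27.3 to 29.3) of human cells, and in 46.8% (44.6 to 49.0) and 43.1% (41.8 to 44.3) of cynomolgus cells. The shares of these genes moved as their CPM did. For KCNJ13 the human copy was found in 1.76% of human cells on day 7 and in 1.65% of cynomolgus cells, so this background does not separate the species for that copy. On day 0 the human copy was in 0.212% of human and 0.0499% of cynomolgus cells. The cynomolgus copy was in 1.56% of cynomolgus and 0.0256% of human cells on day 7. Where the human-copy UMIs of cynomolgus cells came from was not tested.

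**Figure D3:**
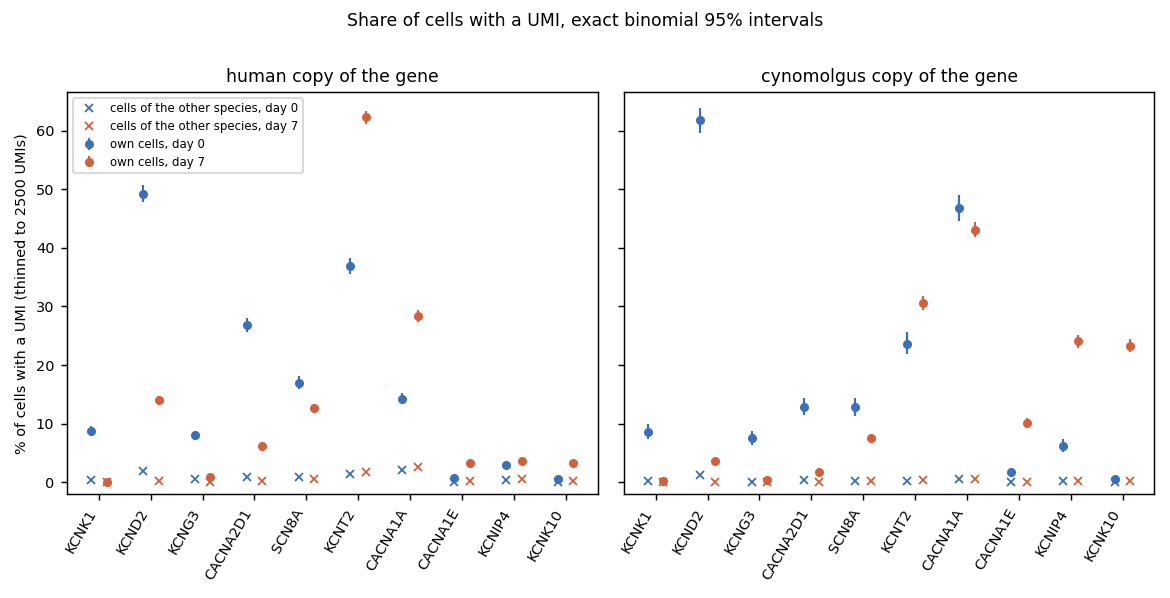
Percent of cells with at least 1 UMI of 10 channel genes after thinning to 2500 UMIs per cell, for the human copy (left) and the cynomolgus copy (right), with day 0 in blue and day 7 in red. Circles are cells of the copy's own species with exact binomial 95% intervals, and crosses are cells of the other species. KCND2 goes from 49.2% to 14.0% and from 61.8% to 3.66%, and crosses stay at or below 2.58%.

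Each species and day was clustered alone with the channel genes left out, and clusters are given by number. At day 0 the highest summed level of neural progenitor markers was in human cluster 4 (414 cells, led by GREB1L, SIX3 and IGFBP5) and cynomolgus cluster 3 (97 cells, led by PTN, FBN2 and LMO2). KCND2 was at 112 CPM in human cluster 4 and at 257 to 597 CPM in the other clusters, apart from cluster 3, a cluster of low depth. In cynomolgus cluster 3 KCND2 was at 177 CPM against 374 to 834 CPM in the other clusters, and KCNK1 at 14.5 against 24.9 to 57.7 CPM. KCNK10 was at 16.3 (7.45 to 30.9) CPM there against 0 to 2.21 CPM, and in human cluster 4 it was at 6.26 CPM against 0 to 2.43 CPM. In these few day 0 cells KCND2 was thus lower than in the other day 0 clusters, except human cluster 3 at 17.1 CPM. KCNK10 was higher, and both directions were those between the days. CACNA2D1, lower on day 7 in both species, went against this in cynomolgus cluster 3, at 150.2 CPM against 39.9 to 75.7 CPM in the other clusters.

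Human cluster 3 at day 0 (550 cells) stood apart in quality, with a median of 1909.5 own-species UMIs per cell against 7021 over all human day 0 cells. Mitochondrial genes took 2.00% of its UMIs and ribosomal protein genes 21.1%, against 6.54% to 8.63% and 11.4% to 13.4% in the other clusters. Of the 22 members at 20 CPM or more, 20 were at least 2-fold below the other cells (39.8% of 7514 genes were), with a median log2 difference of -3.04 against -0.56 over all genes. KCND2 was at 17.1 CPM there against 400.2 CPM in the other cells, KCNT2 at 13.5 against 237 CPM and CACNB2 at 2.71 against 95.9 CPM. KCNK1, at 27.1 against 41.7 CPM, was within 2-fold.

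Human cluster 5 at day 7 (127 cells, median 1523 UMIs against 4965, 11.8% mitochondrial and 1.80% ribosomal protein UMIs) lay on the other side. There 11 of 19 members were at least 2-fold above the other cells (20.2% of 7631 genes were), among them KCNT2 at 1253 against 450.5 CPM and KCND2 at 301 against 77.2 CPM, and 1 was below (22.8% of genes). Day 7 also had a human cluster closer to day 0 cluster 3. This was cluster 6 (87 cells, median 1727 UMIs, 1.44% mitochondrial and 31.1% ribosomal protein UMIs). All members summed to 422 CPM in cluster 6 and 467 CPM in day 0 cluster 3, against 3633 CPM in cluster 5. Low depth thus went with low and with high channel levels on day 7. In the cynomolgus cluster of lowest depth 0 of 21 members were below on day 0 (1.24% of genes) and 1 of 12, KCNIP4, on day 7 (1.69%). Above were 0 on both days (0.00% and 0.0134% of genes). The part of RNA quality in these levels was not tested. Without human cluster 3 of day 0 and cluster 5 of day 7, but with cluster 6 kept, 0 of the 2-fold calls of the named members were lost or gained.

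At day 7 KCNK10 was at 100.5 to 127.6 CPM in each of the 6 cynomolgus clusters. KCNIP4 varied more, from 73.1 to 301 CPM in the 5 larger clusters and 15.8 CPM in cluster 5 (76 cells, with SHH and DBX1 among its leading genes). In that cluster CACNA2D1 was at 41.5 CPM against 6.12 to 10.7 CPM elsewhere. KCNH1 was at 29.1 CPM in cluster 2 and 22.7 CPM in cluster 4, both with ADM and ANKRD37 among their leading genes. It was at 5.35 to 11.9 CPM in the other clusters.

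**Figure D4:**
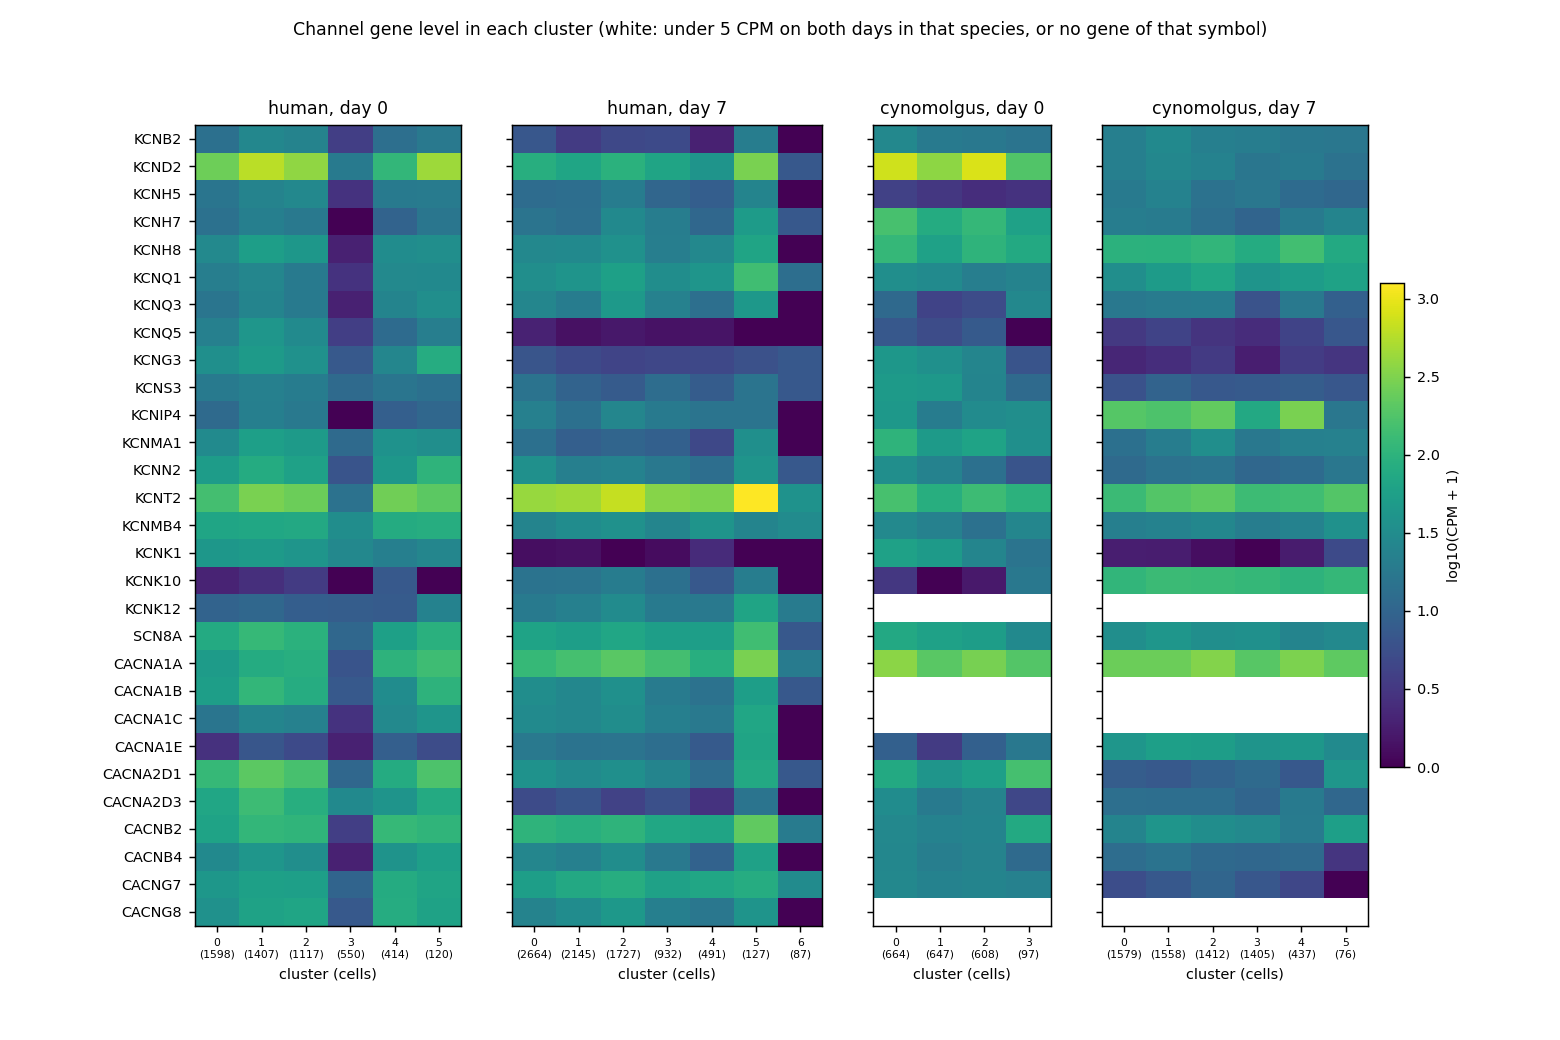
Level of channel genes in each cluster, as log10(CPM + 1) by colour, for human and cynomolgus cells on days 0 and 7, with the number of cells under each cluster number. White marks genes under 5 CPM on both days in that species or with no gene of that symbol. The column of human day 0 cluster 3 is dark for most genes, KCNK1 among the exceptions, and KCNK10 is alike across the cynomolgus day 7 clusters.

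Related genes of excitability (other channels, pumps, exchangers and channel partners) were described beside the members. In human cells 63 of 76 measured were expressed, with 13 higher (14.9% of all expressed genes) and 16 lower (14.4%). In cynomolgus cells 51 of 66 were expressed, with 14 higher (13.8% of all) and 10 lower (11.0%). Their median log2 changes were 0.24 and 0.21. Of 47 expressed in both species, 7 were higher (7.18% of all shared genes) and 6 lower (6.12%) in both. FGF14, an intracellular partner of sodium channels, went from 10.2 to 92.3 CPM in human and from 2.15 to 91.2 CPM in cynomolgus cells. UNC80, a partner of the sodium leak channel, went from 1.99 to 41.0 CPM and from 2.53 to 40.6 CPM. Both genes were higher on day 7 in both species. REST, a repressor of neuronal genes that include channels, went from 47.5 to 78.4 CPM in human and from 76.3 to 95.7 CPM in cynomolgus cells, within 2-fold. Of the neuron marker list, 8 genes were expressed in human and 9 in cynomolgus cells, with 2 and 5 higher and 3 and 3 lower. Their summed level went from 543 to 832 CPM in human and from 795 to 361 CPM in cynomolgus cells, and ELAVL4 and STMN4 were at 0 on day 0 in human cells. SYT1, a synaptic vesicle protein, made up most of these sums and went from 452 to 753 CPM in human and from 717 to 191 CPM in cynomolgus cells. It set the direction of both sums, which therefore do not describe the other genes of the list. Against the sums went the 3 lower human genes, with NEFM from 22.8 to 6.61 CPM. So did the 5 higher cynomolgus genes, with TUBB3 from 7.39 to 79.0 CPM. Of 4 glial markers 0 were expressed in either species. Of the mesoderm and endoderm list 0 genes were expressed in human and 1 in cynomolgus cells, of the muscle and heart list 0 and 1, of the neural crest list 4 and 3, and of the surface and placode ectoderm list 3 and 2. These counts are for either day. On day 7 alone, in the same order of lists, 0 and 0, 0 and 1, 1 and 1, and 3 and 1 genes reached 5 CPM. The part of neuron-like cells in the channel levels was not tested.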

How the data were processed

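The deposited counts are UMIs for each gene in each barcode of 10x Chromium 3′ libraries. They come from Cell Ranger 7.1.0 per the file headers, and from version 7.2.0 with GRCh38 per the submitters' processing notes. Gene prefixes in the files name GRCh38 and Macaca_fascicularis_6.0. Whether intronic reads were counted is not given in the sources used here, and this could change levels of long genes. Barcodes were kept from 1000 UMIs and 500 genes upwards, with mitochondrial UMIs up to 20%. At least 90% of UMIs on a genome set the species, which left 4473 of 11695 barcodes on day 0 and 1476 of 16116 on day 7 as neither. In cynomolgus cells the median share of UMIs on the human genome was 9.00% on day 0 and 6.01% on day 7. With species called at 80% of UMIs, cynomolgus cells numbered 4466 on day 0 and 6626 on day 7, against 2016 and 6467 at 90%. Human cells then numbered 5486 and 8252, against 5206 and 8173. Cynomolgus day 0 levels thus rest on the part of these barcodes with the lowest human share, and what the others are was not tested. No doublet caller was run.

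UMIs were summed per species and day, and CPM, a pseudocount of 1 CPM, a minimum of 5 CPM on either day and a 2-fold threshold were used. The members, gene lists and settings were chosen with earlier results of these data known. Named were members at 20 CPM on either day, the 10 largest increases and decreases per species, and the 5 largest and smallest differences between species, 47 in all. Some genes that met this rule are not reported or drawn here. Other expressed members given with values, and the genes outside the members, were chosen after their values were seen. Silent Kv subunits and BK accessory subunits were counted apart from the pores.

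Clustering used 2000 variable genes, 30 components, 15 neighbours and Leiden resolution 0.5. The 2-fold call was tested on simulated summed counts, with known changes set in genes at 20 CPM or more. Species calling, clustering and thinning were not simulated. Alternatives changed the species call, UMI and quality limits, scaling, weight per cell, pseudocount, minimum level, genome copies counted, thinning depth, resolution and cells left out. Software was leidenalg 0.10.2, scanpy 1.11.5, scikit-learn 1.9.0, scipy 1.17.1, numpy 2.4.6, pandas 2.3.3 and matplotlib 3.10.9 under Python 3.11.15.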

Additional observations from a re-analysis of the deposited data

Results flagged for a closer look

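For 6 of the 42 members at 5 CPM in both species the level moved one way in human and the other way in cynomolgus cells. The counting intervals of these changes excluded no change in both. The difference was not tested, since each species had 1 library per day. The cynomolgus minus human log2 difference was -2.58 for KCNH2, -2.22 for CACNG7, -1.19 for CACNA1D, -1.12 for KCNIP1 and -1.10 for CACNA1A, which were higher on day 7 in human and lower in cynomolgus cells. For CACNA1A this rests on a small cynomolgus change of -0.12, which was 0.06 with species called at 80% of UMIs, so that the directions no longer differed. The difference was 3.20 for KCNH5, which was lower in human and higher in cynomolgus cells. The share of all shared genes that met this interval rule was not counted. By sign alone, 30 of 42 members and 76.0% of the 9094 shared genes moved the same way in both species.

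In cynomolgus cells 2 members had many UMIs assigned to the human copy. For KCNMB4 these were 129 on day 0 and 310 on day 7, beside 233 and 776 UMIs of the cynomolgus copy. For KCNJ13 they were 230 on day 7, beside 218 of the cynomolgus copy.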

How the results depend on the processing

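Of 46 named values past 2-fold, 0 lost that size and 0 changed direction under the 10 alternatives that kept the minimum level. With a minimum of 20 CPM, 25 human and 23 cynomolgus members were expressed, of which 2 human and 3 cynomolgus were higher and 10 human and 9 cynomolgus lower. Then 17 were measured in both species, 0 higher in both, 5 lower in both and 12 with the same sign. With no minimum level 101 were measured in both, 7 higher in both and 67 with the same sign. Shares of all genes at these minimum levels are not given, so these counts describe the members only. In all these settings 0 members moved past 2-fold in opposite directions, and r ranged from 0.57 to 0.72. Of 81 named values, past 2-fold or not, 16 moved by more than counting error with a pseudocount of 0.1 CPM, 15 with equal weight per cell and 5 with species called at 80% of UMIs, where cynomolgus KCNK10 was at 4.64 and CACNA1A at 0.06. Cynomolgus KCNK10 ranged from 4.64 to 5.89 over these alternatives. The small changes of CACNB2 in human cells and of CACNA1A, KCNK5 and KCNMB4 in cynomolgus cells changed sign under at least 1 alternative. With a pseudocount of 0.1 CPM KCNK1 was at -6.70 and KCNH1 at 4.74 in human cells, and KCNJ13 at 4.48 in cynomolgus cells. Values that crossed 2-fold under an alternative were human KCNK2 at 1.10 and cynomolgus KCNQ3 at 1.05 and KCNQ5 at -1.11 with a pseudocount of 0.1 CPM, human CACNA1A at 1.11, KCNK2 at 1.05 and KCNT2 at 1.17 with equal weight per cell, cynomolgus KCNQ3 at 1.04 and KCNQ5 at -1.05 without the 5% of cells with the most UMIs, human CACNA1A at 1.01 and cynomolgus KCNQ3 at 1.17 without the day 0 cluster highest in neural progenitor markers, and cynomolgus CACNA2D3 at -1.04 with both genome copies summed. CACNG8 in human cells reached 2-fold lower with day 7 rescaled. Rescaling by the median ratio shifted changes by 0.0581 in human and 0.0590 in cynomolgus cells. Leaving out human cluster 3 of day 0 and cluster 5 of day 7 was chosen after seeing the data. No paired analysis was possible because each day was 1 library. Members near 1 CPM rest on few UMIs in cynomolgus day 0 cells, where depth was lowest.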

Other observations

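SCN1A, a sodium pore of inhibitory neurons, was singled out after its values were seen. Over all human cells it went from 6.98 to 5.49 CPM between the days, but at day 0 it was at 32.7 (25.4 to 41.5) CPM in cluster 4, the cluster with the highest neural progenitor markers, and at 2.71 to 8.51 CPM in the other clusters. In the matching cynomolgus cluster 3 CACNB2 and KCNQ3 stood out. There CACNB2 was at 74.2 CPM against 22.4 to 27.3 CPM in the other clusters and KCNQ3 at 27.1 against 3.20 to 10.3 CPM. The cluster had 97 cells, and these values were not tested.

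Among the related genes ATP2B4, a plasma membrane calcium pump, was past 2-fold in opposite directions, from 23.1 to 56.7 CPM in human and from 54.4 to 23.9 CPM in cynomolgus cells. Of the 47 related genes expressed in both species it was the 1 that did so.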
